A study of Mus musculus with 12 samples.

Results

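The simple epithelium keratins examined here are Krt7, Krt8, Krt18, Krt19, Krt20 and Krt80, 6 genes taken by name from the 54232 genes of a count table of mouse SVR angiosarcoma tumors. SVR is a single mouse line of endothelial origin, grown under the skin of the flank in athymic nude mice aged 8 to 12 weeks (the strain label reads C57BL/6). Tumors established for 3 to 7 days before daily oral gavage with vehicle (the controls), trametinib at 1 mg/kg, cediranib at 3 mg/kg, or both agents at these doses (the combination). Trametinib inhibits MEK, the kinase that activates ERK, and cediranib inhibits the VEGF receptors. Each group held 3 tumors, and its RNA was taken from whole tumor and enriched by exome capture, chosen because the RNA was rather degraded. The study ran treatment experiments with different endpoints and its text does not tell from which of them these tumors came, which means that days on treatment may differ between groups. All cells in a tumor, skin and stroma included, are of mouse origin, and in a bulk sample fewer cells of a type cannot be told apart from less RNA per cell.

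Keratins form intermediate filaments only as pairs, in which a type I chain joins a type II chain. Krt18, Krt19 and Krt20 are type I, and Krt7, Krt8 and Krt80 are type II. Krt8 with Krt18 is the usual first pair of embryonic and single-layered epithelium, and a chain without a partner is normally unstable as protein. Krt7 and Krt19 mark ducts and glands, Krt20 marks gut lining, urothelium and Merkel cells, and Krt80 is a broadly expressed epithelial keratin. Some vascular tumors, angiosarcomas among them, can stain for simple keratins, while the layers of the epidermis are built mainly of other keratins such as Krt5 and Krt14.

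The 6 genes lie in the keratin clusters of chromosomes 15 and 11 (GRCm38, all annotated as protein coding). Krt80 (ENSMUSG00000037185) spans chr15:101347444-101370162 on the minus strand, Krt7 (ENSMUSG00000023039) spans chr15:101411043-101430313 on the plus strand, Krt8 (ENSMUSG00000049382) spans chr15:101996698-102004482 on the minus strand, and Krt18 (ENSMUSG00000023043) spans chr15:102028180-102032027 on the plus strand. Krt20 (ENSMUSG00000035775) spans chr11:99428403-99438150 and Krt19 (ENSMUSG00000020911) spans chr11:100140810-100148665, both on the minus strand. Krt18 is the only type I gene in the chromosome 15 cluster, and its start faces that of its partner Krt8 across 23697 bases. The stretches just before the starts of these partner genes are printed because their counts took different courses under treatment (250 bases each, 5′ to 3′ along the gene's own strand, from RefSeq windows on GRCm38.p6). Capitals mark the letters TATAA, searched for as a TATA box motif:

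Krt8, chr15:102004343-102004592, minus strand: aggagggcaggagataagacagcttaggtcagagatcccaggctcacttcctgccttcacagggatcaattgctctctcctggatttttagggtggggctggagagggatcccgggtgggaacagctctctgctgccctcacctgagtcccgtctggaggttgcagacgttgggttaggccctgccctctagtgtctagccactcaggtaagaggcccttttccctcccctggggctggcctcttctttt

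Krt18, chr15:102027966-102028215, plus strand: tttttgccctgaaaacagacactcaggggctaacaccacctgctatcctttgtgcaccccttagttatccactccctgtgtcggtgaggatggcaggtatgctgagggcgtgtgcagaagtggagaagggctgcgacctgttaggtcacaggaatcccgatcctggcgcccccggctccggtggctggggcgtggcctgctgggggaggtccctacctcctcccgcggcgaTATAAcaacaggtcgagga

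Windows of this kind were found for 4 of the 6 genes (Krt7, Krt8, Krt18 and Krt20). The letters TATAA stood 19 bases before the RefSeq start of Krt18 and 29 bases before that of Krt20, and 22.8% of 32851 windows held them on either strand. The Krt8 window held none of the 5 motifs searched on both strands, which besides the TATA box were those of AP-1 (TGANTCA, in 6.75% of windows), of Ets factors (CCGGAAGT, in 2.88%), of the GC box (GGGCGG, in 32.7%) and of Grainyhead factors (AACCGGTT, in 0.116%). Krt7 held 4 GC boxes, between 141 and 24 bases before its start. Both printed windows run into the gene models of the count table, which start further upstream. The marked TATAA letters of Krt18 lie inside its gene model. These are matches of letters in a fixed window, and the TATAA spelling was settled after the windows had been seen.

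Libraries held 9478865 to 11666094 counts, and levels are given as CPM (counts relative to library size, scaled by TMM). A count of 3, the limit that a count of 0 allows, corresponded to 0.251 to 0.349 CPM, which covers counting error only. Differences were tested with edgeR's quasi-likelihood test over 12897 genes, and a gene was called at a false discovery rate (FDR, Benjamini-Hochberg) of 0.05 with a log2 fold change of at least 1.5 in either direction. Of the 6 keratins, 5 passed the filter on low counts and Krt20 did not. The labels number the tumors of a group without naming their mice, so the p-values measure only the spread between these tumors. Control 2 and trametinib 2 stood apart by skeletal muscle genes, whose 10 members summed to 16956 and 24191 CPM against 6.77 to 2096 CPM in the other tumors. Among 20 MAPK output genes, 11 were called lower with trametinib and 9 with the combination compared to control, against 1.43% and 1.71% of all genes tested.

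Krt18 was the only member called in any comparison, and it was lower wherever trametinib was given. Against control it was 4.09-fold lower with trametinib and 13.5-fold lower with the combination. Against cediranib it was 3.67-fold lower with trametinib and 12.1-fold lower with the combination. For cediranib compared to control its log2 fold change was -0.16 (95% interval -1.09 to 0.78), which was not called.

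In CPM, Krt18 measured 17.3, 54.0 and 27.0 in the 3 control tumors, a mean of 32.8 ± 19.0 (SD, n = 3). The trametinib tumors read 6.63, 7.68 and 9.63 CPM, a mean of 7.98 ± 1.52 (SD, n = 3). The highest trametinib tumor was thus below the lowest control, as for 12.9% of all genes tested. In the cediranib tumors Krt18 measured 25.6, 32.4 and 30.0 CPM, a mean of 29.3 ± 3.47 (SD, n = 3), all within the range of the controls. The combination tumors had 4.34, 0.908 and 2.04 CPM, a mean of 2.43 ± 1.75 (SD, n = 3). They were below all controls as well, which was so for 15.7% of all genes. All 3 combination values lay below all 3 trametinib values, and the 12 tumors together spanned 59.5-fold. These levels rest on between 10 and 533 counts per tumor, above the limit for a count of 0 in each of them.

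**Figure D1:**
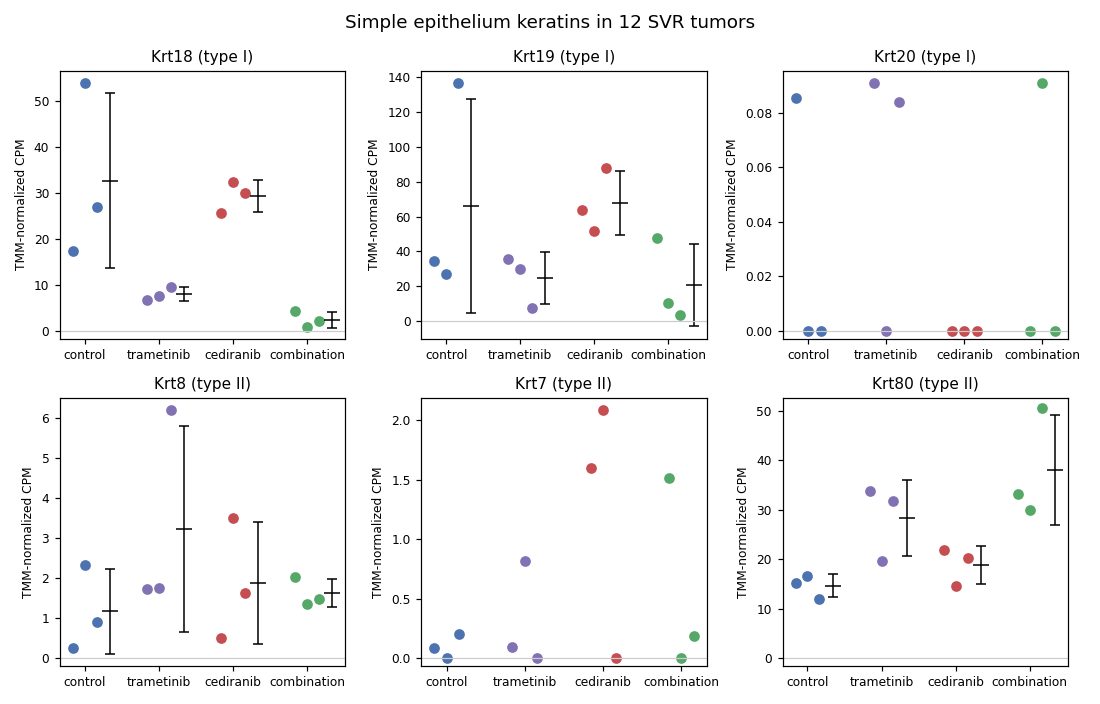
TMM-normalized CPM (vertical axis, a separate linear scale in each panel) of the 6 simple epithelium keratins by treatment, with 1 point per tumor. Crosses with bars give the mean and SD of 3 tumors, left out for Krt7 and Krt20, which are near the limit for a count of 0. Krt18 is lower in all trametinib and combination tumors than in any control or cediranib tumor.

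For trametinib compared to control, the log2 fold change of Krt18 was -2.03 ± 0.45 (SE, 95% interval -3.02 to -1.04) at an FDR of 0.0206. It was the 1 keratin called among the 5 tested, where 1.43% of all genes tested were called lower. Leaving out single tumors gave FDRs from 0.0119 to 0.0823, and the call was lost in 4 of 6 such fits. Without control 2 the change was -1.47 at an FDR of 0.0806, and without trametinib 1, 2 or 3 the FDRs were 0.0823, 0.0696 and 0.0522. Without control 2 and trametinib 2 together, an alternative chosen after their muscle genes were seen, it was -1.44 at an FDR of 0.166.

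For the combination compared to control, the log2 fold change of Krt18 was -3.76 ± 0.50 (SE, 95% interval -4.86 to -2.66) at an FDR of 0.00169. Of all genes tested, 1.71% were called lower, and of the 5 keratins, 1. The call held without each of the 6 tumors in turn, with values from -4.46 to -3.20 and FDRs from 0.00126 to 0.0107. With an epidermal score added to the model, which ran from -0.59 to 1.10 in controls and from 2.88 to 3.56 in combination tumors, the change was -2.87 at an FDR of 0.143 and was no longer called.

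Against cediranib, the combination gave a Krt18 change of -3.60 ± 0.50 (SE, log2, FDR 0.00216, edgeR), with 1.16% of all genes tested called lower, and this held without each of the 6 tumors in turn. Trametinib compared to cediranib gave -1.87 ± 0.45 (SE, log2, FDR 0.0256, edgeR), where 1.97% of all genes were called lower. That call was lost without any single one of the 6 tumors, at FDRs from 0.0516 to 0.0856, and with the epidermal score (-2.63, FDR 0.0601).

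Adding cediranib to trametinib gave a Krt18 log2 fold change of -1.73 ± 0.50 (SE, 95% interval -2.81 to -0.65), with an FDR of 0.103 in edgeR's quasi-likelihood test. The groups did not overlap, as for 11.8% of all genes tested that were lower throughout, and the difference was not called. Here 0.14% of all genes were called lower. DESeq2 and edgeR's likelihood-ratio test did call it, at FDRs of 0.00858 and 0.0170, while leaving out single tumors in the quasi-likelihood fit gave 0.0951 to 0.255. Whether cediranib acted differently with trametinib than without was tested as an interaction, which gave -1.57 ± 0.65 (SE, log2, unadjusted p of 0.0335 in edgeR, FDR 0.692) and was not called, as for 0 of all genes.

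**Figure D2:**
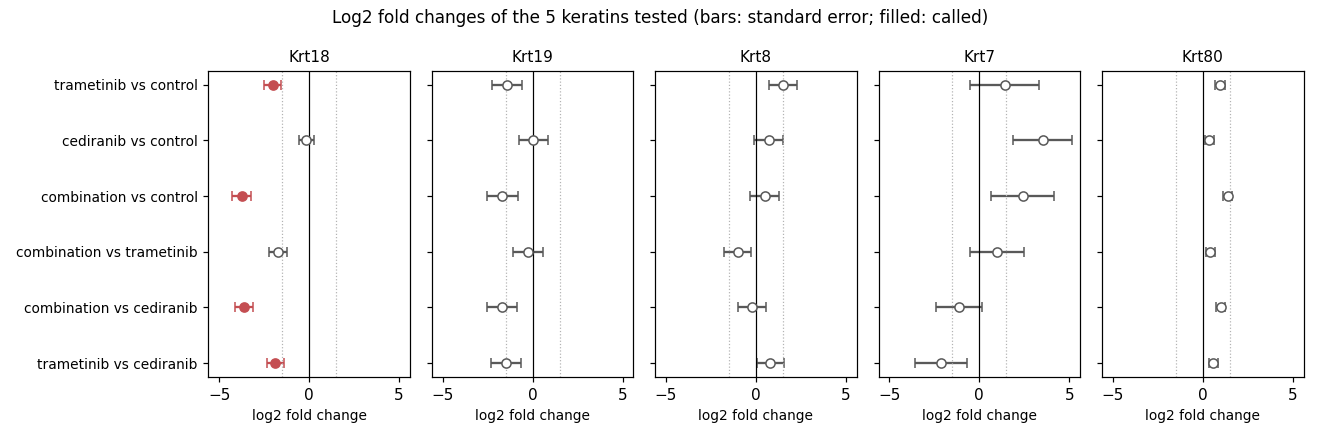
Log2 fold changes (horizontal axis) with standard errors for the 5 keratins tested, in 6 comparisons (vertical axis). Filled points passed an FDR of 0.05 with a change of at least 1.5, the dotted lines. The 4 filled points all belong to Krt18 and run from -3.76 to -1.87.

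Krt19, the type I chain that lacks most of the tail domain, had the highest level per length of the 6 genes, with a median of 18.9 CPM per kb over the 12 tumors. Counts after exome capture also depend on the probes, so levels per length of different genes compare only roughly, here and below. Krt19 measured 34.4, 27.2 and 137 CPM in control tumors and 63.6, 51.5 and 87.8 CPM in cediranib tumors. Values were 35.8, 30.1 and 7.79 CPM with trametinib and 47.9, 10.5 and 3.81 CPM with the combination. The control mean of 66.0 ± 61.2 CPM (SD, n = 3) was carried by control 3, and the combination mean of 20.7 ± 23.7 CPM by combination 1.

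Krt19 was not called in any comparison. Its log2 fold change against control was -1.43 ± 0.83 (SE) with trametinib (FDR 0.366, edgeR) and -1.68 ± 0.84 (SE) with the combination (FDR 0.224, edgeR), with intervals of -3.24 to 0.38 and -3.50 to 0.15. Leaving out single tumors moved these changes between -1.81 and -0.33 and between -3.20 and -0.58, the smallest of both without control 3. All trametinib and all combination tumors were below all cediranib tumors, yet the differences of -1.46 and -1.71 on the log2 scale were not called (FDRs 0.315 and 0.25, edgeR). Groups that were lower without overlap occurred for 13.9% of all genes in the first of these comparisons and for 14.3% in the second. Cediranib compared to control gave 0.03 (95% interval -1.72 to 1.79). These intervals are wide enough to hold both no difference and a several-fold one.

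Krt20, also type I, had 4 counts in all, 1 each in control 1, trametinib 1, trametinib 3 and combination 2. Every tumor was below the limit for a count of 0, so a difference was not detectable at this depth.

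Krt8, the type II partner of Krt18, was low in every group and was not called in any comparison. It had 253 counts over the 12 tumors against 2244 for Krt18. In CPM, Krt8 measured 0.255, 2.33 and 0.909 in control tumors and 1.72, 1.75 and 6.20 in trametinib tumors. It measured 0.500, 3.50 and 1.63 CPM with cediranib and 2.02, 1.36 and 1.49 CPM with the combination. The groups overlapped, and trametinib 3 was the highest tumor.

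The log2 fold change of Krt8 against control was 1.49 ± 0.78 (SE, 95% interval -0.20 to 3.19) with trametinib at an FDR of 0.307 (edgeR). With the combination it was 0.49 ± 0.80 (SE, 95% interval -1.25 to 2.24) at an FDR of 0.741, and with cediranib 0.71 ± 0.79 (SE). A processed pseudogene, Krt8-ps, matches the Krt8 transcript at 98.6% over 941 bases and had 0 counts. The sources do not say how multi-mapping reads were treated, and if such reads were dropped, Krt8 counts are too low. Krt18 has a more distant pseudogene copy, Gm5200, with 90.2% identity over 1269 bases and 0 counts.

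Per length, Krt18 stood far above Krt8 where trametinib was absent. The ratio of Krt18 to Krt8 in CPM per kb was 92.2, 31.6 and 40.4 in control tumors and 69.8, 12.6 and 25.1 in cediranib tumors. With trametinib it was 5.24, 6.00 and 2.12, and with the combination 2.93, 0.908 and 1.87. The ratios of the 6 tumors given trametinib were thus all below those of the other 6. The highest ratios divide by few Krt8 counts and are uncertain. The ratio of 92.2 in control 1 rests on 3 counts, the limit for a count of 0. Those of cediranib 1 and control 3 rest on 5 and 9. Across the 12 tumors the log2 CPM of the 2 genes had a Pearson r of -0.05, as a description, with the points sharing 4 treatments.

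**Figure D3:**
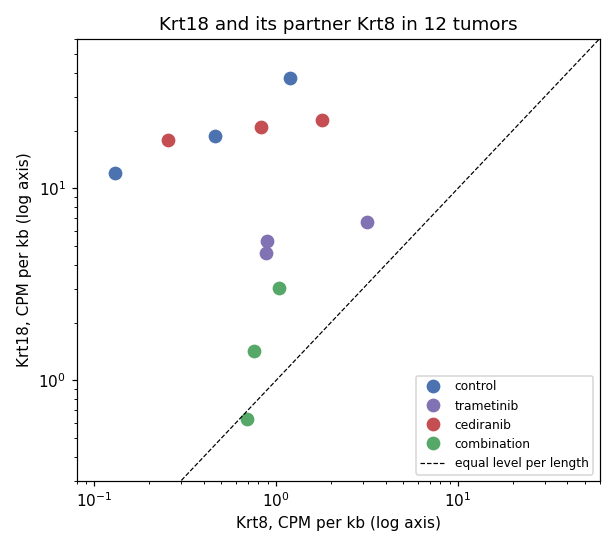
Krt18 against Krt8, both in CPM per kb on log axes, with 1 point per tumor and the line of equal level dashed. Controls and cediranib tumors lie far above the line at ratios of 12.6 to 92.2, and combination tumors lie near it at 0.908 to 2.93. The ratio of 92.2, in control 1, rests on 3 Krt8 counts, the limit for a count of 0.

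Krt7, a type II keratin of ducts and glands, had 66 counts in all, in 8 of the 12 tumors. It measured 1.599 and 2.08 CPM in cediranib 1 and 2. Combination 1 had 1.51 CPM and trametinib 2 had 0.815 CPM, while the other 8 tumors lay between 0 and 0.202 CPM, below the limit for a count of 0. Pooled over each group, the controls gave 3 counts, trametinib 8, cediranib 38 and the combination 17. As a ratio to control of pooled counts, scaled for depth, cediranib stood at 12.9 (4.08 to 65.1), the combination at 5.63 (1.63 to 30.0) and trametinib at 2.66 (0.639 to 15.6), with 95% intervals for counting error only. Krt7 was not called in any comparison, and a tumor with 0 counts stood beside tumors with counts in each of the 4 groups. The largest change against control, 3.53 ± 1.64 (SE, log2) with cediranib, had an FDR of 0.999 in edgeR, where 0 of all genes were called and 557 had an unadjusted p under 0.05. An antisense gene, Gm671, overlaps Krt7, and without a known strand setting their reads cannot be told apart. The longest Krt7 transcript also carries a repeat found in many other transcripts, which makes its few counts less certain.

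Krt80, a type II keratin, had higher values in the groups where Krt18 was lower. It measured 15.2, 16.5 and 12.02 CPM in control tumors, a mean of 14.6 ± 2.32 (SD, n = 3). Trametinib tumors had 33.9, 19.6 and 31.7 CPM and combination tumors 33.2, 30.0 and 50.7 CPM. Cediranib tumors had 21.9, 14.6 and 20.3 CPM. Every trametinib and every combination tumor was above every control, while cediranib tumors overlapped the controls.

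Compared to control, Krt80 was 2.60-fold higher with the combination, a log2 fold change of 1.38 ± 0.26 (SE, 95% interval 0.81 to 1.95) at an FDR of 0.00888 (edgeR). It passed the FDR, as did 4.85% of all genes in that direction, and missed the minimum fold, so it was not called. Compared to cediranib the combination gave 1.01 ± 0.26 (SE, log2, FDR 0.0368, edgeR), where 3.9% of all genes passed the FDR in that direction, again under the minimum fold, with no overlap as for 14.1% of all genes. With trametinib the change was 0.96 ± 0.26 (SE, 95% interval 0.39 to 1.53), and its FDR of 0.05002 was just above the threshold, which 2.64% of all genes passed in that direction. Non-overlapping higher values were found for 12.9% of all genes with trametinib and for 15.6% with the combination. The combination did not differ detectably from trametinib, at 0.42 ± 0.25 (SE, log2, FDR 0.42, edgeR). Trametinib compared to cediranib gave a Krt80 change of 0.59 ± 0.26 (SE, log2, FDR 0.182, edgeR), which was not called, and these groups overlapped. Krt80 overlaps the antisense gene Gm35853, which had 261 counts over all tumors and at most 43 in 1, and the microRNA gene Mir1941.

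The makeup of the summed simple keratin signal differed between groups. Krt80 made up 6.80% to 22.6% of the summed CPM of the 6 genes in controls and 14% to 19.3% with cediranib. Its share was 32.6% to 57.3% in trametinib tumors and 37.3% to 87.1% in combination tumors. The share of Krt18 was 15.3% to 54.0% in controls, 21.5% to 31.2% with cediranib, 8.48% to 17.4% with trametinib, which overlaps the controls, and 2.11% to 4.88% in combination tumors. Per length, the type I genes together exceeded the type II genes 12.1 to 38.9 times in controls and 11.5 to 17.0 times with cediranib. In trametinib tumors it was 1.35 to 5.31 times, and in combination tumors 0.399 to 4.47 times.

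The order of levels per length was not the same in every group. In controls, mean CPM per kb was 35.6 for Krt19, 22.8 for Krt18, 2.28 for Krt80 and 0.595 for Krt8, with Krt19 and Krt18 overlapping between tumors. With the combination it was 11.2 for Krt19, 5.94 for Krt80, 1.69 for Krt18 and 0.829 for Krt8. Krt19 overlapped both Krt80 and Krt18 between tumors there, while all Krt80 values lay above all Krt18 values.

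Epidermal keratin counts were unequal between tumors, and with an epidermal score in the model 2 of the 4 Krt18 calls were lost, as given above. The 12 epidermal keratins summed to 780 CPM in control 1, 5286 and 2796 CPM in cediranib 1 and 3, and 4359 to 6861 CPM in the combination tumors. The other 6 tumors had 1.42 to 11.7 CPM. In the 6 tumors rich in epidermal keratins the simple keratins made up 0.599% to 7.91% of the CPM of all 54 keratin genes, and in the other 6 they made up 83.8% to 93.3%.

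Within the tumors rich in epidermal keratins, Krt18 measured 17.3 to 30.0 CPM in control 1 and cediranib 1 and 3 and 0.908 to 4.34 CPM with the combination. Within the tumors poor in them it measured 27.0 to 54.0 CPM in control 2 and 3 and cediranib 2 and 6.63 to 9.63 CPM with trametinib. The first of these sets holds 1 control and no tumor given trametinib alone, and the part of epidermal content in the Krt18 result was not tested by this split. Krt80 measured 15.2 to 21.9 CPM in the tumors rich in epidermal keratins without trametinib and 30.0 to 50.7 CPM with the combination. In the poor tumors it measured 12.02 to 16.5 CPM without trametinib and 19.6 to 33.9 CPM with it. Control 1 counts as rich by its keratins only. Over 31 other epidermal genes it summed to 106 CPM, nearer to the poor tumors (47.1 to 85.2 CPM) than to the other rich ones (297 to 602 CPM).

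Krt5 and Krt14, the basal pair, are among the 12 epidermal keratins that set rich and poor tumors apart, so their difference follows from that split. Krt5, the type II chain, averaged 1317 ± 232 CPM (SD, n = 3) with the combination and 2.14 ± 2.28 CPM (SD, n = 3) with trametinib. Krt14, the type I chain of basal keratinocytes, averaged 1775 ± 490 CPM (SD, n = 3) with the combination and 1.23 ± 0.881 CPM (SD, n = 3) with trametinib. Of the 12 epidermal keratins 11 were tested, and compared to control 0 were called with trametinib (median log2 fold change -5.75). With the combination 1, Krt15, was called higher (median 4.30), where 1.91% of all genes tested were called higher. The controls behind both medians were unequal, with sums of 780 CPM in control 1 and 11.7 and 5.25 CPM in controls 2 and 3. Trametinib tumors had sums of 1.42 to 7.63 CPM, near those of controls 2 and 3. Of 31 other epidermal genes 23 were tested, of which 1 was called lower with trametinib and 11 higher with the combination. With trametinib, 1.43% of all genes tested were called lower. Among 25 genes of epithelial identity 12 were tested, with 1 called lower with trametinib and 3 higher with the combination, which were Esrp1, Grhl1 and Ovol1. Hair follicle genes, 9 tested of 15, had 0 calls with trametinib and 5 higher with the combination. The median over all genes tested was 0.01 and 0.00 in these comparisons.

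Other cells that make simple keratins were looked for by marker lists. Merkel cell genes were mostly too low to test (2 of 12 tested), with Atoh1, which defines these cells, at 0 counts in all tumors. Of the 2 tested, Piezo2, a mechanosensitive channel also made by other cells, was called lower with the combination, at -3.11 (log2, FDR 0.0427, edgeR). In that comparison 1.71% of all genes tested were called lower. Mesothelial genes (1 of 8 tested) had Upk3b at 0. Among sweat and mammary gland genes (3 of 13 tested) Foxi1, Csn2 and Wap were at 0, while the water channel Aqp5 was called higher with trametinib, by 3.64 ± 0.43 (SE, log2, FDR 0.000626, edgeR), where 0.977% of all genes were called higher, and with the combination. Slc12a2, an ion cotransporter of the same list, was called lower with the combination, at -1.71 (log2, FDR 0.00821, edgeR). Over all genes tested, 1.91% were called higher and 1.71% lower with the combination. Sebaceous gland genes (4 of 10 tested) gave 0 calls.

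Endothelial genes mark both the tumor cells and the host's vessels here, and several were lower in the groups where Krt18 was lower. Of 14, 12 were tested, and 5 were called lower with trametinib and 6 with the combination compared to control, where 1.43% and 1.71% of all genes were called lower. Cdh5, the cadherin of endothelial junctions, fell by 1.99 on the log2 scale with trametinib (FDR 0.0423, edgeR) and by 2.37 with the combination (FDR 0.0173, edgeR). Eng, another endothelial gene, had log2 fold changes of 0.03 and -0.16 and was not called. The 14 genes summed to 259 to 522 CPM in controls, 117 to 177 with trametinib, 161 to 404 with cediranib and 82.1 to 147 with the combination.

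As a share of that endothelial sum, Krt18 was 6.68%, 16.3% and 5.17% in controls and 7.00%, 8.04% and 18.6% with cediranib. It was 4.48%, 4.34% and 8.26% with trametinib, which overlaps the controls. With the combination it was 3.30%, 1.11% and 1.39%, below all other tumors. The part of endothelial content in the Krt18 result was not tested.

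**Figure D4:**
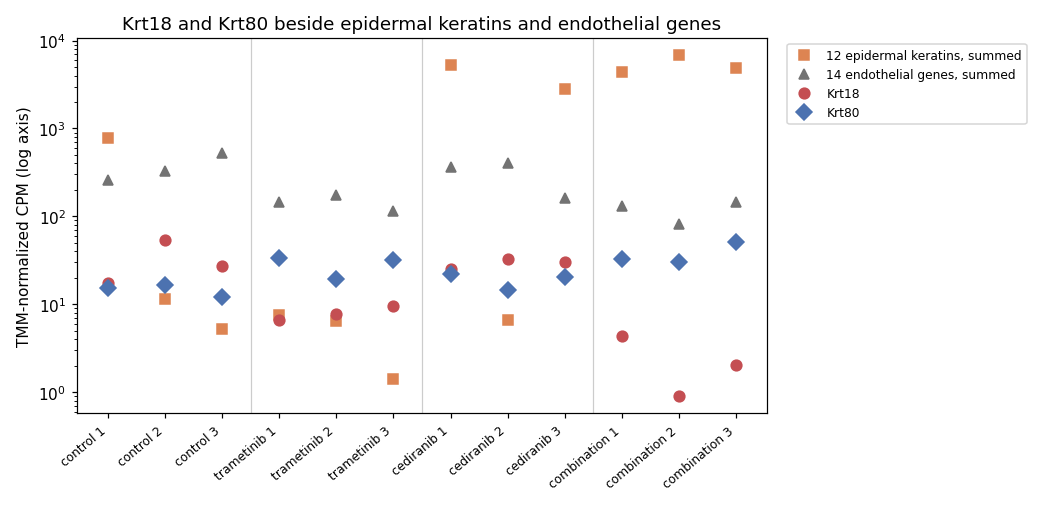
TMM-normalized CPM (log axis) in each of the 12 tumors of Krt18, Krt80, the sum of 12 epidermal keratins and the sum of 14 endothelial genes. Krt18 is at 25.6 and 30.0 CPM in the epidermis-rich cediranib 1 and 3 and at 0.908 to 4.34 CPM in the combination tumors, while Krt80 is highest in combination 3 at 50.7 CPM.

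Linkers and partners hold keratin filaments in the cell. Of 17 such genes, 16 were tested, with 0 calls for trametinib (median log2 fold change -0.27) and 4 called higher for the combination (Ppl, Evpl, Pkp3 and Sfn, median 0.67), where 1.91% of all genes were called higher. These 4 genes are also in the list of epidermal genes. Plec, the plectin gene, whose product ties intermediate filaments to other structures, had log2 fold changes of -0.42 and -0.24 and was not called. Of 10 other cytoplasmic intermediate filament genes 6 were tested, and Nefm, a neurofilament chain, was called lower in both comparisons. Over all genes tested, 1.43% were called lower with trametinib and 1.71% with the combination. Vim, the vimentin of mesenchymal and endothelial cells, averaged 6938 ± 1724 CPM (SD, n = 3) in controls and 5434 ± 258 CPM (SD, n = 3) with the combination and was not called.

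Among 15 AP-1, Ets, Klf and Sp factors, families known to act on keratin genes, 1 was called higher and 1 lower in each of the comparisons of trametinib and of the combination to control. Over all genes, 0.977% were called higher and 1.43% lower with trametinib, and 1.91% and 1.71% with the combination. Klf4, a factor of epithelial differentiation, was the gene called higher, by 1.93 and 1.88 on the log2 scale. Fos was the gene called lower with trametinib and Fosl1 the gene called lower with the combination. Of the stromal lists, 0 of 9 fibroblast genes tested and 0 of 10 muscle genes were called in either comparison, and among 10 macrophage genes Cd68 was called lower with the combination.

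By Pearson r of log2 CPM over the 12 tumors, the genes whose levels were most like those of Krt18 were Inpp4b (0.95), Mob1b (0.95), Gfi1 (0.94), Cdk17 (0.94) and Lasp1 (0.93). Inpp4b, a phosphoinositide phosphatase, was called lower with trametinib (-2.28 on the log2 scale) and with the combination (-3.51), as was Gfi1, a transcriptional repressor, with the combination (-1.81). Most like Krt19 were Vcpkmt (0.91), Rpl22 (0.90), Cnot7 (0.90), Gm8399 (0.89) and Nudcd2 (0.88), none of them called against control. Most like Krt80 were Fam81a (0.92), Masp1 (0.91), Has1 (0.91), Galnt15 (0.91) and Gm20517 (0.91). Has1, a hyaluronan synthase, was called higher with trametinib (2.52) and the combination (2.95). Most like Krt8 and Krt7 were Mcm8 (0.88) and A130006I12Rik (0.89), and neither was called. Between members, r was 0.66 for Krt18 with Krt19, -0.77 for Krt18 with Krt80 and -0.72 for Krt19 with Krt80. All of these r values describe 12 tumors in 4 treatments, with the treatment differences included. Genes picked by such an r tend to share the member's treatment differences, so their calls are not separate observations.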

How the data were processed

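RNA sequencing counts of 12 tumors were used, 3 per treatment, with groups taken from the sample titles. The authors called bases with bcl2fastq 1.8.4, aligned to GRCm38 with STAR 2.7.1a in 2-pass mode and counted genes with featureCounts 1.6.0. The deposited values are raw counts without normalization. The sources used here do not give the annotation release, whether strand was used, or how multi-mapping reads were treated. Exome capture makes a count depend on its probes, and no column was left without a sample.

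Counts were filtered with filterByExpr (minimum count 10, minimum total 15), scaled with TMM (factors 0.908 to 1.10) and fitted by quasi-likelihood with edgeR 4.0.16 (R 4.3.3), all 12 libraries in 1 model. Depth was 9478865 to 11666094 counts per library, and the biological coefficient of variation was 27.2%. The SE is the absolute log2 fold change over the square root of F. CPM per kb used the gene length column of the deposited table. Of its identifiers, 54165 were found in GENCODE M21, which gave strands and overlaps. Log2 CPM used a prior count of 2. Near-identical transcripts were sought with blastn (90% identity over 100 bases). Promoter windows and motif letters came from RefSeq windows on GRCm38.p6. The procedure was also run on simulated counts, drawn independently for each gene. These held no tumors differing in muscle or epidermal content, so that check does not cover such differences.

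The members, lists, tests and alternatives were chosen with earlier results of these data known. The genes named are the members, the 3 most abundant genes tested of each list with Krt5 and Krt14, the 5 genes most like each tested member by Pearson r, and called genes where a list had few, which were picked after their values were seen. Alternatives were DESeq2 1.42.0, the likelihood-ratio test, other scalings, no filter, no minimum fold, only the groups compared, a replicate block, an epidermal score (mean of 23 epidermal genes, keratins excluded), leaving out each tumor, and leaving out the 2 muscle-rich tumors.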

Additional observations from a re-analysis of the deposited data

How the results depend on the processing

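The call of Krt18 for the combination against cediranib and its direction in the 4 comparisons where it was called held under all alternatives run. The number of keratins called changed as follows. Without the filter on low counts it was 1 for cediranib against control (Krt7), 2 for the combination against control and against cediranib (Krt18 and Krt19), 1 for the combination against trametinib and 1 for the interaction (Krt18 in both). FDRs were far smaller in that fit (8.79e-41 for Krt18 in the combination against control). Without a minimum fold it was 2 for the combination against control and against cediranib (Krt18 and Krt80). With library totals as scaling it was 2 for the combination against control (Krt80 at 1.51), where the median of all genes moved to 0.13. With DESeq2 and with the likelihood-ratio test it was 1 for the combination against trametinib (Krt18). With the epidermal score it was 0 for the combination against control and for trametinib against cediranib. Without the 2 muscle-rich tumors it was 0 for trametinib against control. When each tumor was left out in turn it ranged from 0 to 1 for trametinib against control, was 0 throughout for trametinib against cediranib, and ranged from 1 to 2 for the combination against control, with Krt80 called at 1.53 without combination 2.

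Directions reversed only among values that were not called. With the epidermal score the log2 fold change became 0.37 for Krt18 in cediranib against control, 0.032 for Krt19, 2.01 for Krt8 and -0.14 for Krt80 in combination against trametinib, 1.12 for Krt8 in combination against cediranib, -0.89 for Krt8 in trametinib against cediranib, and 0.21 for Krt8 and -0.27 for Krt80 in the interaction. Without the muscle-rich tumors it became 0.40 for Krt18 and -0.34 for Krt19 in cediranib against control, -1.45 for Krt7 in trametinib against control, and 0.26 for Krt19, 0.32 for Krt7 and -0.25 for Krt80 in the interaction. With single tumors left out, Krt18 ranged from -0.48 to 0.41 in cediranib against control, Krt19 from -0.34 to 1.13 in cediranib against control, from -1.76 to 0.26 in combination against trametinib and from -1.78 to 0.23 in the interaction, and Krt80 from -0.21 to 0.21 in the interaction. Krt7 ranged from -0.039 to 3.29 in combination against control, from -1.45 to 3.35 in combination against trametinib and from -0.95 to 2.31 in trametinib against control. Krt8 ranged from -0.10 to 1.71 in cediranib against control, from -0.66 to 0.59 in combination against cediranib, from -0.0064 to 1.49 in combination against control and from -0.12 to 1.598 in trametinib against cediranib. The causes of these changes were not tested.

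Deviations of same-numbered tumors correlated between -0.22 and 0.36, over 0.1 in 3 of 18 pairs, so the replicate numbers were not taken as pairs. A fit with the replicate block changed no call, and reversed Krt8 for the combination against cediranib to 0.10. Krt20 was below the limit for a count of 0 in every tumor, and for Krt7, Krt8 and Krt19 the spread between the 3 tumors of a group left wide intervals.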
